A study of Mus musculus with 28 samples.

Results

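Neurotrophins are secreted growth factors that keep neurons alive and shape their branches and synapses. BDNF (gene Bdnf) binds the receptor tyrosine kinase TrkB (Ntrk2), NT-3 (Ntf3) binds TrkC (Ntrk3), and every neurotrophin, and its uncleaved proform above all, can also bind p75 (Ngfr), a receptor of the tumour necrosis factor receptor family. Ntrk2 and Ntrk3 give rise to receptors with a kinase domain and to truncated ones without it. In the brain, Bdnf is known for its expression in cortex and hippocampus, Ntf3 for cerebellar granule cells, and Ngfr for the cholinergic neurons of the basal forebrain.

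The 5 transcripts Bdnf, Ntf3, Ntrk2, Ntrk3 and Ngfr were followed through the brain, as 2 ligands and 3 receptors, out of 20660 gene symbols named on the array. They were chosen by name, through the RefSeq record that each array probe carries, and 10 of 55681 probes matched them. Each gene was measured by the probe with the highest mean level.

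The study mapped expression by Transcriptome Tomography: frozen brains were sliced serially, and runs of neighbouring slices along an axis were collected as fractions. The fractions came from male C57BL/6J mice, an inbred strain, with no treatment or altered allele given in the labels, at 3 weeks after birth. There were 12 coronal fractions of mouse 1, 6 horizontal fractions of mouse 2 and 10 sagittal fractions of mouse 3. Each fraction was hybridised to 1 array, so that no position has a replicate, mouse and plane cannot be told apart, and the number of arrays limits the precision.

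Levels are log2 values relative to the 75th percentile of the array's signal, so that 0 is the level of a fairly bright probe. Levels of different probes are not compared. Positions are fraction numbers, and marker genes gave their orientation. In the coronal series, the mean of the hindbrain markers was highest in fraction 1 and that of the olfactory bulb markers in fraction 12. Horizontally, cerebral cortex markers peaked in fraction 1 and hypothalamus markers in fraction 6. Sagittally, hypothalamus markers peaked in fraction 6, and fractions 1 and 10 lay at the 2 ends. The 75th percentile of signal ran from 135 to 574, and an array had 24822 to 34240 probes well above background. Horizontally this percentile was 267 and 233 in end fractions 1 and 6 and highest in fraction 5 (458). Sagittally it was 135 and 205 in end fractions 1 and 10, 176 in fraction 9 and highest in fraction 4 (568). Ntf3 and Ntrk3 horizontally and Ngfr sagittally were also lower at the ends than inside. The part of array brightness in these profiles was not tested. The neuron markers Snap25, Rbfox3, Syt1 and Tubb3, 4 of 4, were well above background in all 28 fractions of this brain tissue. Slide 2 held coronal fractions 3 to 10, slide 1 held coronal fractions 1 and 2 and all horizontal ones, slide 3 held coronal fractions 11 and 12 and sagittal fractions 5 to 10, and slide 4 the other sagittal ones.

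The starts of these genes differ in number and in base composition, and the bases upstream of 4 starts are shown because the array cannot tell which start a transcript came from. RefSeq tables of GRCm38.p6 listed 7 starts for Bdnf, 2 for Ntf3, 1 for Ntrk2 and 1 for Ngfr, which is 4 of 5 genes. The 250 bases before each start were searched on both strands for TGACG, the half-site of the cAMP response element, for GGGCGG, the GC box, and for TATAAA, the TATA box. These motifs occurred in 17.8%, 32.7% and 12.4% of 32851 such windows, and in the windows of these genes no match overlapped a match of another motif. Capitals mark the matches on either strand. The only Bdnf window with TGACG, both Ntf3 windows and the Ngfr window read, 5′ to 3′:

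Bdnf, chr2:109692186-109692435, plus strand: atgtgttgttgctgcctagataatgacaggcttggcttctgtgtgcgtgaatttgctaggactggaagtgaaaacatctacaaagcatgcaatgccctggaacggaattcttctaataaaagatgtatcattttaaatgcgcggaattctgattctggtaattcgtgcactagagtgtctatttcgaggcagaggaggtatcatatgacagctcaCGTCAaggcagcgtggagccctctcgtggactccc

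Ntf3, chr6:126164961-126165210, minus strand: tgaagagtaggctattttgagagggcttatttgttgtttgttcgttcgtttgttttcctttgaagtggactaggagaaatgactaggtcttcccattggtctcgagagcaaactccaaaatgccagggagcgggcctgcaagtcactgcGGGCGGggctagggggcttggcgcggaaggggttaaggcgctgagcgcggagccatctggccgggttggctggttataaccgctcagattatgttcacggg

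Ntf3, chr6:126166745-126166994, minus strand: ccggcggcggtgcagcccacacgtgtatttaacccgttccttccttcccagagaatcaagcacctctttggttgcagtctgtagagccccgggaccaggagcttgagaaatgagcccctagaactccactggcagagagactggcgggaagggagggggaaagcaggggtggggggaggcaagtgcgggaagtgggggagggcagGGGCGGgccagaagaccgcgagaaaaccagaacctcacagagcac

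Ngfr, chr11:95587699-95587948, minus strand: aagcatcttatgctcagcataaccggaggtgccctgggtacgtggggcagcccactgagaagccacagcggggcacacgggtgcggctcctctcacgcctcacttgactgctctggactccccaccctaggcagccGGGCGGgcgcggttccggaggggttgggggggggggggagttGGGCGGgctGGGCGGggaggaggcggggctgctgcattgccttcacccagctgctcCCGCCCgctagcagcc

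The Bdnf window holds 1 half-site, which begins 35 bases before the start and is written on the opposite strand. Each Ntf3 window holds 1 GC box, and the Ngfr window holds 4. The share of G and C was 45.6% in this Bdnf window, 54.0% and 62.0% in the Ntf3 windows and 70.4% in the Ngfr window. Of the other 6 Bdnf windows, 2 hold a GC box, and the Ntrk2 window holds none of the 3 motifs. TATAAA was in none of the 11 windows. A match is a string of letters and not a shown binding site.

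Position along each axis was tested for every probe that was well above background somewhere in each series, as a smooth curve over the fraction number with limma. In the coronal series, 10910 of 32364 probes varied with position at an adjusted p under 0.05 (33.7%), and 2 of the 5 genes, Bdnf and Ntf3, did so. In the horizontal series, 5115 probes did (15.8%), and so did 4 of the 5 genes, Bdnf, Ntf3, Ntrk3 and Ngfr. In the sagittal series, 4767 probes did (14.7%), and 1 of the 5 genes, Ngfr, was among them. The median fitted range of the 5 genes was 1.15 log2 in the coronal, 1.39 in the horizontal and 1.41 in the sagittal series, beside 0.90, 0.74 and 1.06 over all probes tested. The residual around the curve is the only error this design gives, and neighbouring fractions share a brain, so these p-values describe 3 brains and not mice in general.

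**Figure D1:**
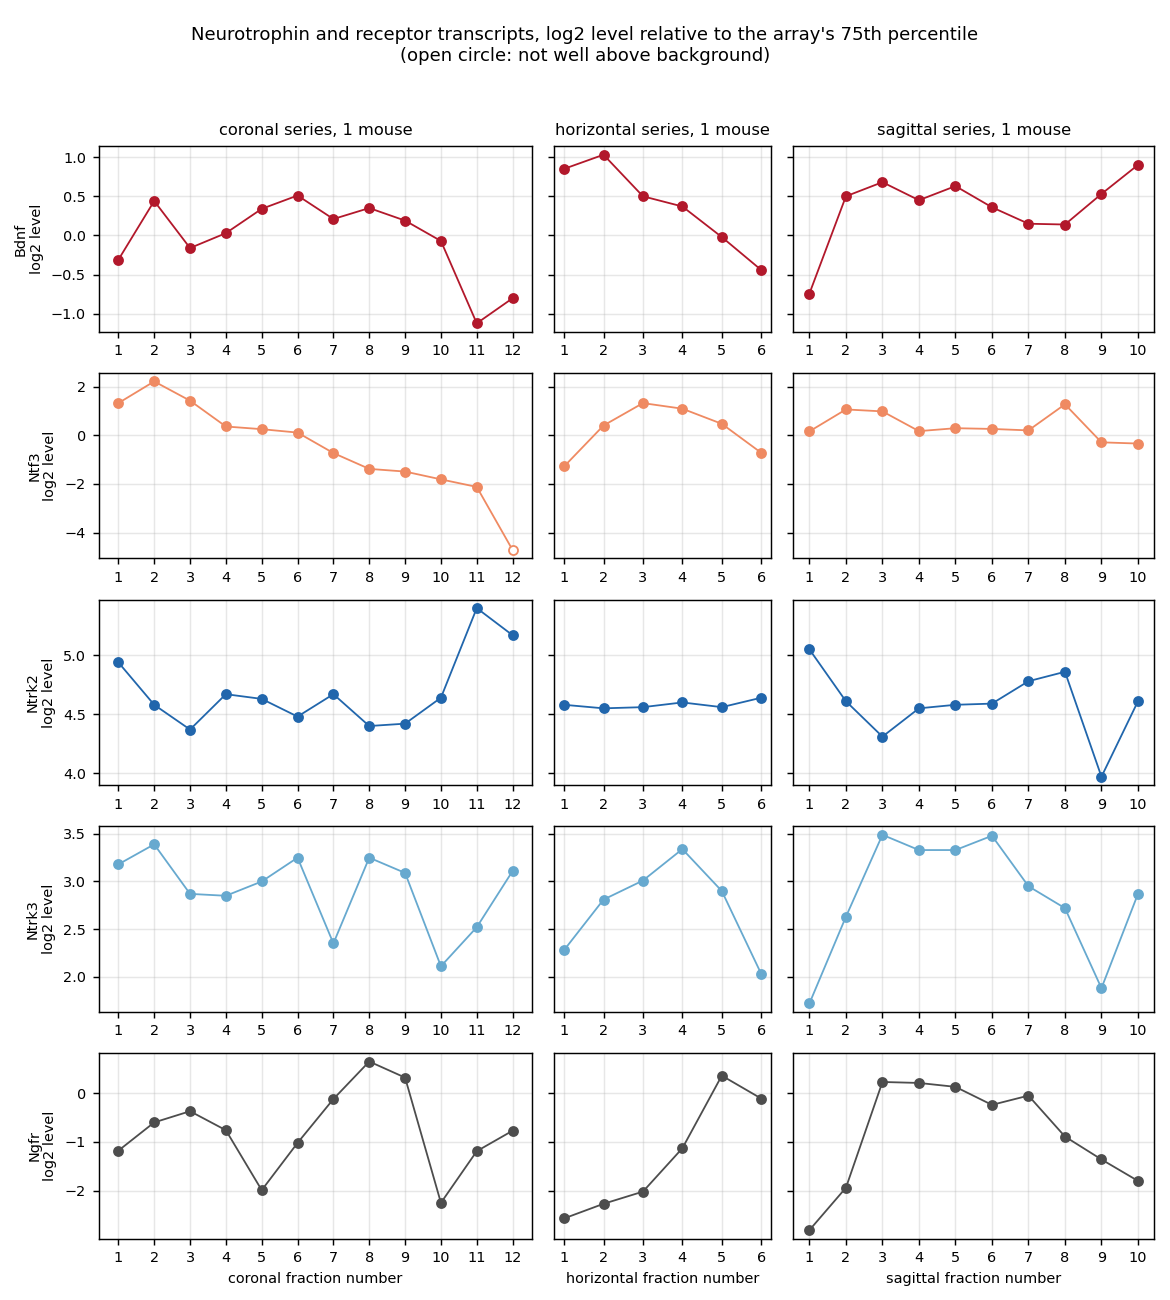
Log2 level of the 5 transcripts (rows) against fraction number in the coronal, horizontal and sagittal series (columns), relative to the 75th percentile of each array, with 1 array per point and an open circle where the probe was not well above background. Ntf3 runs from 2.21 in coronal fraction 2 to -4.71 in fraction 12, Ngfr is lowest in horizontal fraction 1 and sagittal fraction 1, and the probe shown for Ntrk2 stays between 4.55 and 4.64 across the horizontal series.

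Ntf3, the ligand of TrkC, had the widest coronal range of the 5. Along the coronal axis it stood at 1.32, 2.21 and 1.42 in fractions 1 to 3, at 0.36, 0.25 and 0.11 in fractions 4 to 6, at -0.73, -1.38 and -1.49 in fractions 7 to 9, and at -1.81, -2.12 and -4.71 in fractions 10 to 12. From fraction 2 onward each fraction was lower than the one before it. The last value was not well above background, and fraction 2 was at least 110-fold higher than fraction 12 with the background subtraction of the scanner files. With normexp the fold was 24.6, which is no bound, as the same value was not well above background, so the size of this fold depends on the background correction. Between fractions 2 and 11, both above background, the fold was 20.2. The trend passed the test (limma, adjusted p = 0.000499), with a residual SD of 0.63 log2, and without fraction 12 the fitted range was 3.86 log2, at the 98.1st percentile of all probes tested (adjusted p = 0.00126). Leaving out each fraction in turn gave adjusted p-values of 0.000511 to 0.00167. Within slide 2 alone, fractions 3 to 10, adjusted p was 0.013, and with the slide as a term it was 0.142 (unadjusted p = 0.00674), a fit in which 241 probes in all were past the threshold. The last coronal fraction may hold more tissue than the others, since its label names a 13th fraction along with the 12th.

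Through the horizontal series, Ntf3 was high in the middle and low at both faces. Its levels in fractions 1 to 6 were -1.28, 0.40, 1.32, 1.09, 0.47 and -0.72, a 6.03-fold difference between fraction 3 and fraction 1 (limma, adjusted p = 0.0182; 9.11-fold with array-median scaling). Fractions 3 and 4 differed by 0.22 log2, close to the residual SD of 0.17. Without fraction 3 adjusted p was 0.0706, and without fraction 4 it was 0.0658. In those fits no probe of the array passed (0 of 32364 in limma, with 10053 and 7679 at an unadjusted p under 0.05). A curve with 1 degree of freedom fewer, which here is a straight line, gave 0.936, and only 1 probe of the array passed. In the sagittal series the lowest, median and highest levels were -0.34, 0.23 and 1.27, with peaks in fractions 8 and 2, and the trend did not pass the test (limma, adjusted p = 0.629, fitted range 0.88). With array-median scaling fractions 3 and 9 were the extremes and the fold between highest and lowest went from 3.05 to 6.61.

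Among the lists that moved with Ntf3 were markers of the cerebellum. The mean of the cerebellar granule cell list (Gabra6, Neurod1, Cbln1 and Cbln3) lay between -2.73 and 4.86 log2 around its coronal mean, with its highest value in fraction 2. Of its 4 genes, 2 were well above background in all 28 fractions, Gabra6 in 19 and Cbln3 in 15, so that this mean rests in part on dim signals. Ntf3 and this list had r = 0.78 over 12 coronal, 0.96 over 6 horizontal and 0.56 over 10 sagittal fractions, and the Purkinje cell list gave 0.83, 0.93 and 0.40. The oligodendrocyte list, with 5 of 5 genes well above background throughout, had r = 0.93 with Ntf3 in the coronal series and ranged there from -1.86 to 1.02. In the horizontal series the olfactory bulb list had r = 0.93 with Ntf3, the thalamus list 0.82 and the meningeal fibroblast list -0.95. These correlations are over fractions of 1 brain that share their arrays and are descriptions. In pooled tissue, fewer cells of a type and less RNA per cell cannot be told apart, and the part of these cell types in the profile was not tested.

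**Figure D2:**
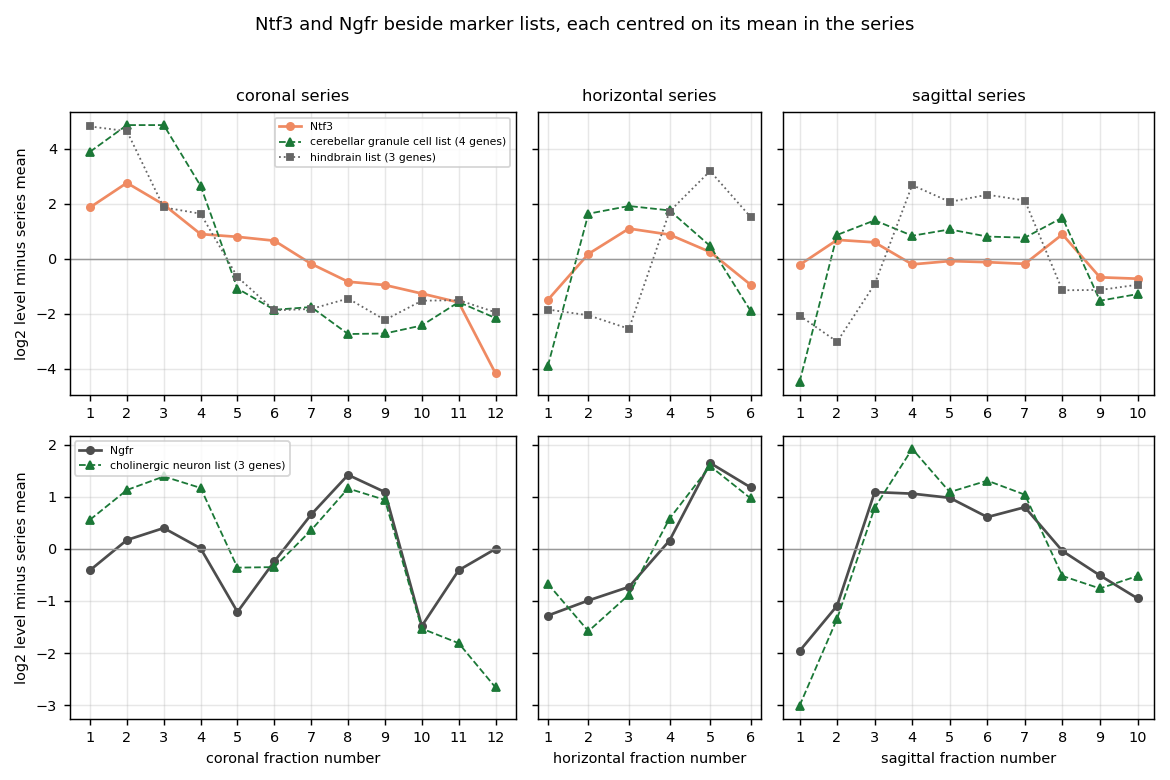
Log2 level minus the mean of the series against fraction number for Ntf3 with the cerebellar granule cell and hindbrain marker lists (top row) and for Ngfr with the cholinergic neuron list (bottom row), 1 array per point, in the 3 series. Ntf3 declines more evenly along the coronal axis than the granule cell list, which is high in fractions 1 to 4 and at -1.08 or below from fraction 5 on, and Ngfr and the cholinergic list both have rises around coronal fractions 2 to 3 and 8 to 9 and are highest in horizontal fraction 5.

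Bdnf, the ligand of TrkB, varied less than Ntf3 in the coronal and horizontal series. Its lowest, median and highest coronal levels were -1.12, 0.11 and 0.51, in fractions 11 and 6 for the extremes, a 3.09-fold difference. Fractions 4 to 9 lay between 0.03 and 0.51, and fractions 11 and 12 were the lowest of the series at -1.12 and -0.80, the fractions where the olfactory bulb markers were highest. The trend passed the test (limma, adjusted p = 0.0229), with a residual SD of 0.30 log2, wider than the gap of 0.07 between the top fractions 6 and 2. It no longer passed without fraction 6 (adjusted p = 0.0503), without fraction 11 (0.0525), with the array median as scaling (0.0677), with the slide as a term (0.255) or within slide 2 alone (0.144). Bdnf and the olfactory bulb list had r = -0.87 over these 12 fractions. Of the 4 genes of that list, 2 were well above background in all 28 fractions, Eomes in 26 and Tbx21 in 19, so the mean of the list rests in part on dim signals. Its part in the Bdnf profile was not tested.

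Across the horizontal series Bdnf fell from one face to the other. Fractions 1 to 6 stood at 0.85, 1.03, 0.50, 0.37, -0.02 and -0.44, a 2.77-fold difference between fractions 2 and 6 (limma, adjusted p = 0.0326). With array-median scaling the fold was 5.40. From fraction 2 on, each level was lower than the one before. Bdnf and the mean of the cerebral cortex markers Tbr1, Rtn4rl2 and Neurod6 (2 of 3 well above background throughout) had r = 0.98 over these 6 fractions, 0.42 in the coronal and 0.35 in the sagittal series. Horizontally the microglia list had r = 0.86 and the endothelium list 0.81 with Bdnf. The cholinergic (-0.86) and hypothalamus (-0.84) lists were among those that ran the opposite way there. Coronally, horizontally and sagittally, the hippocampus list (1 of 4 genes well above background throughout) had r = 0.67, -0.27 and 0.27 with Bdnf. The neuron list had 0.71, 0.68 and 0.77 in these series. Leaving out fraction 1, 2, 3, 4 or 6 gave adjusted p-values of 0.0706, 0.0614, 0.0804, 0.114 and 0.0982. A straight line gave 0.148, a fit in which 1 probe of the array passed, and the unadjusted p of Bdnf was 0.00215 there beside 0.00313 with the curve. Sagittally, Bdnf had a lowest, median and highest level of -0.74, 0.47 and 0.90, in fractions 1 and 10 for the extremes, and did not pass the test (limma, adjusted p = 0.0619). It did without fraction 9 (adjusted p = 0.0266) or 10 (0.0439) and with normexp background correction (0.0261).

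Among the receptors, Ngfr showed the widest range in the horizontal and sagittal series, except that with normexp background correction Ntrk3 had the wider sagittal range (2.05 log2 beside 1.61). Horizontal fractions 1 to 6 stood at -2.57, -2.27, -2.02, -1.13, 0.36 and -0.11, so that fraction 5 was 7.62-fold higher than fraction 1 (limma, adjusted p = 0.0424). Fractions 1 to 3 were the lowest ones, and fractions 5 and 6 differed by 0.47 log2, within the residual SD of 0.55. Leaving out fraction 1, 2, 3 or 4 gave adjusted p-values of 0.122, 0.103, 0.083 and 0.111. A straight line gave 0.124 with an unadjusted p of 0.00117, beside 0.00562 with the curve. With normexp the trend passed (0.0181), and the fold between the highest and lowest fraction was 3.55.

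Across the sagittal fractions Ngfr stood at -2.81 and -1.94 in fractions 1 and 2, at 0.23, 0.21, 0.13, -0.24 and -0.05 in fractions 3 to 7, and at -0.89, -1.36 and -1.80 in fractions 8 to 10. The inner fractions 3 to 7 were all higher than the outer ones on either side, by 8.27-fold between fractions 3 and 1 (limma, adjusted p = 0.00972, residual SD 0.39 log2). With normexp the fold was 3.05, between fractions 3 and 2. With the slide as a term adjusted p was 0.0255, and within slide 3 alone, fractions 5 to 10, it was 0.555 (unadjusted p = 0.00643). Without fraction 1 it was 0.14, and in that fit no probe of the array passed (0 of 32364 in limma, while 5955 had an unadjusted p under 0.05).

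Along the coronal axis Ngfr had local peaks in fractions 3 and 8 rather than a slope, and it climbed again from fraction 10 to fraction 12. Its levels were -1.18, -0.60, -0.37 and -0.76 in fractions 1 to 4, -1.99 in fraction 5, -1.02 and -0.12 in fractions 6 and 7, 0.65 and 0.32 in fractions 8 and 9, and -2.25, -1.19 and -0.77 in fractions 10 to 12. Fraction 8 was 7.45-fold higher than fraction 10, and with normexp it was 4.27-fold higher than the lowest one, then fraction 5. A curve of 3 degrees of freedom could not follow this shape (residual SD 0.91 log2), and the trend did not pass (limma, adjusted p = 0.676). Over fractions 3 to 10, which share slide 2, adjusted p was 0.0391. The striatum markers were also highest in fraction 8.

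Among the lists that moved with Ngfr were cholinergic markers. The list of Chat, Slc5a7 and Slc18a3, the synthetic enzyme of acetylcholine, the choline transporter and the vesicular transporter, had r = 0.93 with Ngfr over 6 horizontal and 0.95 over 10 sagittal fractions, and 0.55 over 12 coronal ones. Other lists also had a high r with Ngfr. Horizontally these were the hindbrain list (0.93, and 0.78 sagittally) and the hypothalamus list (0.84, and 0.56 sagittally). Sagittally they were the thalamus (0.88), oligodendrocyte (0.86), Purkinje cell (0.85), hippocampus (0.84) and granule cell (0.78) lists. Others ran the opposite way, horizontally the cerebral cortex (-0.92) and microglia (-0.90) lists and sagittally the pituitary list (-0.80). Only 1 fraction had Prl well above background, and only 3 had Tshb, so the pituitary mean rests in part on dim signals. The same holds for the hindbrain list, with 0 of 3 genes above background throughout, and the hippocampus list, with 1 of 4. Chat and Slc18a3 were well above background in all 28 fractions and Slc5a7 in 27. The mean of the list ranged from -2.66 to 1.39 log2 around its coronal, from -1.58 to 1.59 around its horizontal and from -3.01 to 1.92 around its sagittal mean. Ngfr and the list parted in several coronal fractions. The list was highest in fraction 3 and Ngfr in fraction 8. Around their coronal means, the list stood at 1.17 and Ngfr at 0.01 in fraction 4, and at -1.81 and -0.41 in fraction 11. In fraction 12 the list was at its lowest and Ngfr at its coronal mean. The share of these neurons in the Ngfr profile was not tested.

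Ntrk2, the receptor for BDNF, had the narrowest range of levels of the 5 by its brightest probe in each series, except that with array-median scaling Bdnf had the narrower sagittal range (1.88 log2 beside 2.11). By fitted range, Ntrk3 was flatter in the coronal series (0.46 beside 0.86). In the horizontal series fractions 1 to 6 stood at 4.58, 4.55, 4.56, 4.60, 4.56 and 4.64, a range of 0.09 log2, and its fitted range was at the 0.664th percentile of all probes tested. In the coronal series its lowest, median and highest levels were 4.37, 4.63 and 5.40, with fractions 11 and 12 at the top (5.40 and 5.17), and in the sagittal series they were 3.97, 4.60 and 5.05. None of the 3 trends passed (limma, adjusted p = 0.0767, 0.945 and 0.562 in the coronal, horizontal and sagittal series). The coronal one passed with 1 degree of freedom fewer (0.0461), while adjusted p was 0.995 with the slide as a term and 0.676 within slide 2 alone. The top fractions 11 and 12 were the only coronal ones on slide 3, so position and slide cannot be told apart there. Among the marker lists, the olfactory bulb list had r = 0.83 and the cholinergic list -0.72 with this probe coronally. Sagittally the endothelium list had 0.82 and the neuron list -0.81. The part of these lists in the Ntrk2 profile was not tested. Scaling by the array median turned the horizontal profile around, with r = -0.60 against the levels given here, a highest level in fraction 4 and a range of 1.02.

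The 3 probes of Ntrk2 gave different profiles. The probe A_51_P393454, spotted 10 times, carries the same RefSeq record as the brightest probe A_55_P2006792, yet their r was -0.25 over 28 fractions and -0.74 over the 6 horizontal ones. It was highest in coronal fraction 9 (3.71), where the brightest probe was near its low. The dimmest probe, A_65_P04961, had r = 0.35 with the brightest one, and in the sagittal series it ran from 1.20 in fraction 9 to 3.02 in fraction 5 and passed the test (limma, adjusted p = 0.0495). Which transcripts each probe reads, full-length or truncated, is not given in the sources used here, so none of these profiles can be assigned to a receptor form.

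Ntrk3, the receptor for NT-3, was highest in the middle of the horizontal series. Its levels in fractions 1 to 6 were 2.28, 2.81, 3.01, 3.34, 2.90 and 2.03, a 2.46-fold difference between fractions 4 and 6 (limma, adjusted p = 0.0491; 5.12-fold with array-median scaling). This value lies just under the threshold, and it moved above it whichever fraction was left out (0.0628 to 0.224), under quantile normalization (0.0526), without the filter on dim probes (0.0732), with a straight line (0.975) and with the next probe of the gene (0.161). With array-median scaling it was 0.00821 and with normexp 0.0116. Its lowest, median and highest coronal levels were 2.11, 3.05 and 3.39, and the trend did not pass (limma, adjusted p = 0.643). In the sagittal series they were 1.72, 2.91 and 3.49, high in fractions 3 to 6 and low in fractions 1 and 9 (limma, adjusted p = 0.0629). The fold between highest and lowest was 3.41, and 8.43 with array-median scaling, between fractions 6 and 9. Among the marker lists, Ntrk3 had r = 0.85 with the granule cell and thalamus lists, 0.83 with the Purkinje cell list and -0.85 with the meningeal fibroblast list in the horizontal series. Sagittally it had 0.91 with the hippocampus list, 0.87 with the cholinergic and thalamus lists and -0.85 with the pituitary list. In the hippocampus list 1 of 4 genes was well above background throughout. In the pituitary list Prl was so in 1 fraction and Tshb in 3, so both means rest in part on dim signals. The part of the marker lists in the profile was not tested. Nor was that of the array's 75th percentile of signal, which was also lowest in horizontal fraction 6 and sagittal fraction 1. The sagittal trend passed under quantile normalization (0.0451), normexp (0.0101), no filter (0.0443), and without fraction 9 (0.00852) or 10 (0.00895).

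The 4 probes of Ntrk3 ran more nearly alike than those of Ntrk2. Their r with the brightest probe, A_66_P118329, was 0.72, 0.81 and 0.97 over 28 fractions. The closest one, A_55_P2056533, carries the same RefSeq record and also passed in the horizontal series (limma, adjusted p = 0.0446), with its highest level in fraction 4 as well. All 4 were highest in horizontal fraction 4 and lowest in fraction 6.

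**Figure D3:**
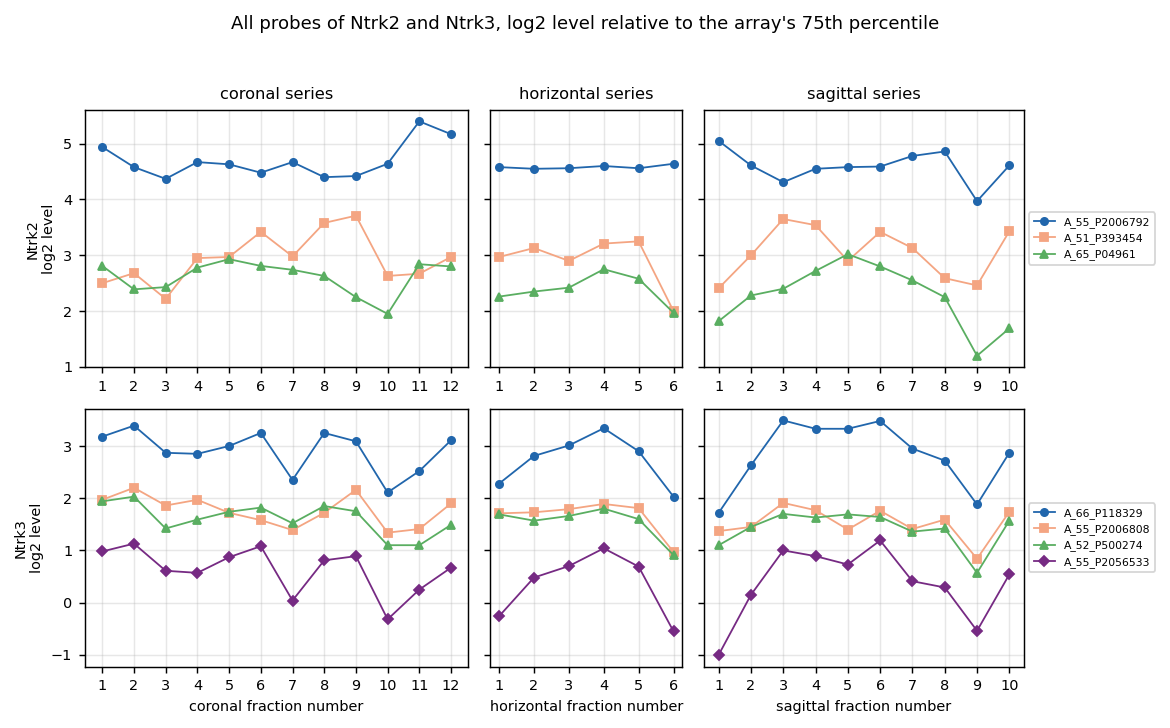
Log2 level relative to the 75th percentile of the array against fraction number for the 3 probes of Ntrk2 (top row) and the 4 probes of Ntrk3 (bottom row) in each series, 1 array per point. The 4 Ntrk3 probes all peak in horizontal fraction 4, while the brightest Ntrk2 probe peaks in coronal fraction 11 and A_51_P393454 in coronal fraction 9.

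Ligand and receptor positions were compared through the log2 difference of their levels in the same fraction, in which the scaling of the array cancels. The difference was centred on its mean in the series, and a permutation test over the fractions asked whether it follows a smooth course. The test was exact in the horizontal series, over all 720 orders, and used 100000 resamples in the others. Over 4 pairs in 3 series, 12 tests in all, 8 had an adjusted p under 0.05, and 3 of 12 did with the next probe of Ntrk2 and Ntrk3. The 12 tests reuse the same 5 profiles, and the share over other pairs of probes was not computed. Of all single probes, 33.7%, 15.8% and 14.7% varied with position in the 3 series, so this count does not set these pairs apart from others. The permutation treats fractions as exchangeable, while neighbouring fractions are not independent.

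For Ntf3 and its receptor Ntrk3, the coronal difference ran from 2.28 in fraction 2 to -1.19 in fraction 11 and was at most -4.23 in fraction 12, where Ntf3 was not well above background, a range of at least 6.51 log2 (permutation test, n = 12, adjusted p = 0.0156). Fractions 1 to 7 all lay above the mean and fractions 8 to 12 below. Ntf3 spanned at least 6.79 log2 on this axis and Ntrk3 1.28. Without fraction 12 adjusted p was 0.0132. Leaving out each fraction kept adjusted p between 0.0128 and 0.0404, and within slide 2 alone it was 0.0524. In the horizontal series the pair ran more nearly together, with r = 0.90 and rho = 0.89 over 6 fractions and a difference that spanned 1.87 log2 (exact permutation test, adjusted p = 0.0667). In that series adjusted p was 0.0333 without fraction 4 and 0.0286 without fraction 6. The sagittal difference spanned 1.77 log2 (permutation test, n = 10, adjusted p = 0.139). A p above the threshold does not show that ligand and receptor share a profile.

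For Bdnf and Ntrk2, the coronal difference was highest in fraction 6, at 0.76, and lowest in fraction 11, at -1.79 (permutation test, n = 12, adjusted p = 0.0333). Fractions 2 to 10 all lay above the mean, and fractions 1, 11 and 12 below. The test of slide 2 alone, which leaves those 3 out with fraction 2, gave 0.364. In the horizontal series the difference declined from 0.68 in fraction 2 to -0.88 in fraction 6 (exact permutation test, adjusted p = 0.0333). Adjusted p rose above the threshold there without fraction 3, 4 or 5 (0.1 each) or 6 (0.139). With the next probe of Ntrk2, A_51_P393454, adjusted p was 0.05 in the coronal series, from an unadjusted 0.0319, and 0.363 in the horizontal series. The sagittal difference was lowest in fraction 1, at -1.56, and highest in fraction 9, at 0.79 (permutation test, n = 10, adjusted p = 0.0558).

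Bdnf and the brightest probe of Ntrk2 had r below 0 in every series at this scaling, with r = -0.87 over 12 coronal, -0.65 over 6 horizontal and -0.66 over 10 sagittal fractions. The rho values were -0.62, -0.71 and -0.68. These values belong to this probe and not to the gene. The probe A_51_P393454 had r = -0.32, -0.74 and -0.18 with it in the 3 series. That probe was lowest in horizontal fraction 6 and sagittal fraction 1, where Bdnf was lowest too. Coronally it was lowest in fraction 3 and Bdnf in fraction 11. The horizontal r lay between -0.87 and -0.14 when 1 fraction was left out, and Ntrk2 ranged there over 0.09 log2, beside a median SD of repeated spots of 0.056 to 0.085. By contrast, scaling by the array median gave -0.61, 0.81 and 0.44. That scaling moved the arrays of 1 series against each other by up to 0.52 log2 in the coronal, 1.06 in the horizontal and 1.51 in the sagittal series.

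For Bdnf and Ngfr, the horizontal difference went from 1.75 in fraction 1 to -2.06 in fraction 5, a range of 3.81 log2 (exact permutation test, adjusted p = 0.0333), and r was -0.90 over the 6 fractions, -0.45 with array-median scaling, beside 0.21 in the coronal and 0.45 in the sagittal series. The sagittal r lay between -0.25 and 0.67 when 1 fraction was left out. In the horizontal series, the difference lay above its mean in fractions 1 to 3 and below it in fractions 4 to 6. Leaving out fraction 1, 2, 3 or 5 gave adjusted p-values of 0.0889, 0.15, 0.0667 and 0.0667. In the sagittal series the 4 outer fractions 1, 2, 9 and 10 lay 0.86, 1.23, 0.68 and 1.49 above the mean, and fractions 3 to 8 below (permutation test, n = 10, adjusted p = 0.0333). Without fraction 4, 5, 6, 7, 9 or 10 adjusted p was between 0.051 and 0.0692, within slide 3 alone 0.0524, and with normexp 0.143. The coronal difference did not pass (permutation test, n = 12, adjusted p = 0.74, and 0.0524 within slide 2 alone, from an unadjusted 0.0242), with peaks of 1.58 in fraction 5 and 1.45 in fraction 10, where Ngfr was lowest.

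For Ntf3 and Ngfr, the coronal difference was highest in fraction 2, at 2.59, stood at -2.25 in fraction 8 and was at most -4.04 in fraction 12, again a limit (permutation test, n = 12, adjusted p = 0.0333). Without fraction 12 adjusted p was 0.0367. Leaving out each fraction gave 0.017 to 0.0458, and slide 2 alone 0.0524. The horizontal difference was highest in fraction 3, at 1.83, and lowest in fraction 6, at -2.12 (exact permutation test, adjusted p = 0.0458). It no longer passed without fraction 1 (0.0889), 2 (0.153), 3 (0.153), 4 (0.11) or 5 (0.075), nor with a straight line (0.271). The sagittal difference was highest in fractions 2 and 1, at 1.78 and 1.74, and lowest in fraction 4, at -1.27 (permutation test, n = 10, adjusted p = 0.0404). Leaving out fraction 1, 3, 4, 5, 6, 7, 9 or 10 moved adjusted p to between 0.0562 and 0.0779, slide 3 alone gave 0.364 and normexp 0.247.

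**Figure D4:**
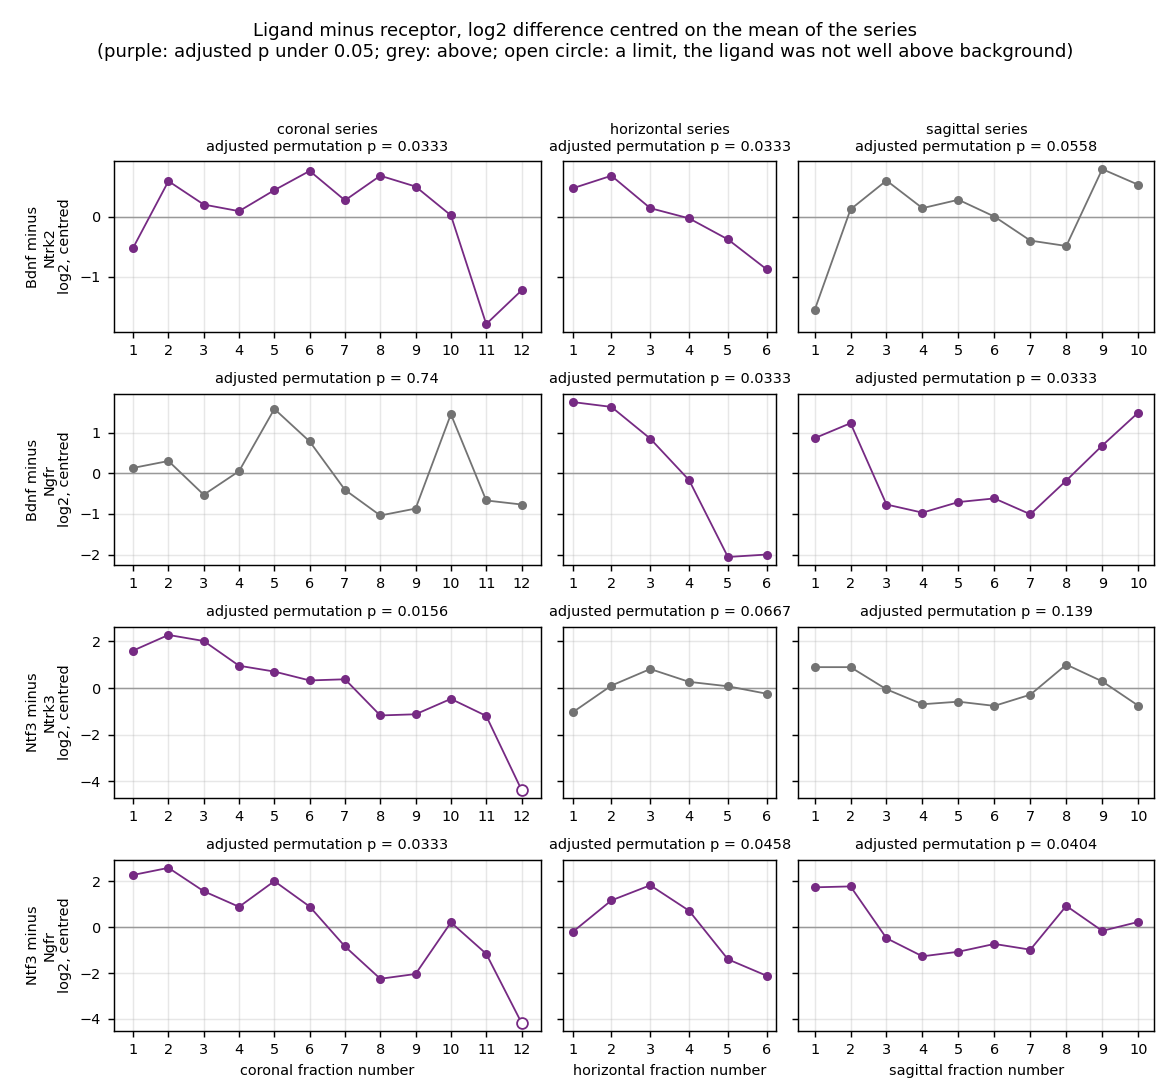
Log2 difference of ligand minus receptor, centred on its mean in the series, against fraction number for 4 pairs (rows) in 3 series (columns), with 1 array per point, purple where the adjusted permutation p was under 0.05 and grey otherwise, and an open circle where the ligand was not well above background and the point is a limit. The coronal differences of Ntf3 with Ntrk3 and with Ngfr are at most -4.23 and -4.04 in fraction 12, and the sagittal difference of Bdnf and Ngfr is above 0 in fractions 1, 2, 9 and 10 and below it in fractions 3 to 8.

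The 2 ligands and the receptors were also set against one another. Bdnf and Ntf3 had r = 0.53 over the 12 coronal, 0.07 over the 6 horizontal and -0.08 over the 10 sagittal fractions. When 1 fraction was left out these lay between 0.32 and 0.63, -0.43 and 0.59, and -0.39 and 0.14. Ntrk3 and Ngfr had r = 0.83 in the sagittal series (0.72 to 0.89 when 1 fraction was left out), 0.39 in the coronal (0.05 to 0.57) and -0.05 in the horizontal one (-0.37 to 0.46). These are descriptions, since neighbouring fractions are not independent.

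The left and right sides of the brain gave the nearest thing to a repeated measurement, as sagittal fractions 1 and 10, 2 and 9, 3 and 8, 4 and 7, and 5 and 6 lie at like distances from the middle of the series. Fractions 1 to 4 were on slide 4 and fractions 5 to 10 on slide 3, so in 4 of the 5 pairs side and slide cannot be told apart. With these mirror pairs as groups, limma called 0 of 32364 probes (0%) and none of the 5 genes, while 5406 probes had an unadjusted p under 0.05. Ngfr had pair means of -2.31, -1.65, -0.33, 0.08 and -0.06 from the outer to the inner pair, with a within-pair SD of 0.53 log2 (unadjusted p = 0.00354, adjusted p = 0.19 by limma). Its fractions within a pair differed by 0.26 to 1.13 log2 in size. With the array median as scaling, Ngfr passed (adjusted p = 0.00642) together with 1120 probes. The pair means of Ntrk3 were 2.29, 2.25, 3.11, 3.14 and 3.41 (limma, adjusted p = 0.397). The within-pair SD was 0.56 for Bdnf, 0.46 for Ntf3, 0.31 for Ntrk2 and 0.51 for Ntrk3, so that the 2 ends of Bdnf, at -0.74 and 0.90, make up the largest difference between mirror fractions among the 5 genes, 1.65 log2. Marker lists also differed between fractions 1 and 10, with -2.99 and -0.32 around its mean for the oligodendrocyte list, -4.47 and -1.28 for the granule cell list and -3.01 and -0.52 for the cholinergic list, and their part in the gap was not tested.

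The mean levels of the 5 genes were also compared between the 3 brains. Bdnf had -0.03 ± 0.50 (SD, n = 12 fractions), 0.38 ± 0.55 (n = 6) and 0.36 ± 0.45 (n = 10) in the coronal, horizontal and sagittal series, and Ngfr had -0.77 ± 0.85, -1.29 ± 1.21 and -0.85 ± 1.08. None of the 5 passed a limma test over 28 fractions (adjusted p = 0.468 to 0.912), in which 526 probes did (1.63%). Fractions are parts of 1 brain and not replicates, so this compares 3 brains with their planes and slides.

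Around these genes stood 28 listed genes of the same pathway, of which 25 could be tested. NT-4 (Ntf5) was well above background in 2 coronal, 0 horizontal and 9 sagittal fractions, and plasminogen (Plg) and Ripk2 in 0 of 28, so these 3 were not, since a tested probe had to be so in every series. Of the 25, 9 passed in the coronal series, 3 in the horizontal and 3 in the sagittal series, beside 33.7%, 15.8% and 14.7% of all probes. The median fitted range was 0.91, 0.61 and 0.82 log2, beside 0.90, 0.74 and 1.06 over all probes.

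Sortilin (Sort1), the partner of p75 for proneurotrophins, ran from 2.21 in coronal fraction 1 to 4.05 in fraction 8 (limma, adjusted p = 0.00571). Its relative Sorcs2 ran from -1.21 in fraction 2 to 0.86 in fraction 12 (0.0458).

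Of the genes that process proforms, Plat, the tissue plasminogen activator, passed in the coronal series (limma, adjusted p = 0.0467), with 1.91 in fraction 5 and 0.61 in fraction 10. Of the partners of p75, the Nogo receptor gene Rtn4r passed in the coronal (0.000633) and the horizontal series (0.0183), where it dropped from 1.68 in fraction 1 to -0.92 in fraction 6. Lingo1, another part of that receptor complex, passed in the coronal series (0.0129) but was above background in only 11 fractions, 8 of them coronal. Traf6, an adaptor, passed in the sagittal series (0.0371) and was above background in 25 fractions. Its lowest sagittal level, -3.79 in fraction 1, lay close to the dimmest signal above background on that array, -3.85. For the pathway genes, no fit with the slide or with fractions left out is given.

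Of the 11 adaptors and effectors of Trk receptors, Gab1 passed in all 3 series (limma, adjusted p = 0.0136, 0.0289 and 0.00974). It stood lowest in horizontal fraction 1 (-1.83) and sagittal fraction 1 (-2.27) and highest in horizontal fraction 5 and sagittal fraction 4. Frs3 passed in the coronal and sagittal series (0.00304 and 0.0413) with 18 fractions above background, Shc3 and Ptpn11 in the coronal (0.0131 and 0.0204) and Grb2 in the horizontal series (0.047). The other 6 passed in none.

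The transcripts most like each gene were sought over 28 fractions among 19159 named probes well above background in at least 14. Among those alike to Ngfr were Klhl13 (r = 0.84), Mme (0.80), the gene of neprilysin, and Cyp2s1 (0.80). In the coronal, horizontal and sagittal series Klhl13 had 0.71, 0.94 and 0.93.

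Ntf3 was closest to Tbata (r = 0.92), to Hpcal1 (0.90), a calcium sensor, and to Pvalb (0.90), the calcium-binding parvalbumin of fast-spiking interneurons and Purkinje cells. In the sagittal series alone these r were 0.83, 0.51 and 0.57. For Bdnf the closest were Vps13a (0.86), Herc3 (0.85) and Pak7 (0.84). The brightest Ntrk2 probe was closest to Mmd2 (0.95), Khk (0.92) and Fuca1 (0.90), whose r in the horizontal series was 0.62, 0.18 and -0.67. Ntrk3 was closest to Ankrd17, Glg1 and Mia3 (0.93 each). For these 4 genes, the number of probes with r over 0.85 was 2 for Bdnf, 17 for Ntf3, 36 for Ntrk2 and 194 for Ntrk3, so that a high r singles out few probes for Bdnf and many for Ntrk3. The fractions of 3 brains are pooled in these values, which share arrays and scaling.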

How the data were processed

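RNA was labelled with Cy3 and hybridised to one-colour Agilent arrays, 1 per fraction. The deposited scanner files give background-subtracted intensity, read out with Feature Extraction 10.5.1.1. The authors also deposited log2 values for 44721 probes, which lay within 0.01 of the values computed here for 99.84% of them after an offset per array of 0.00111 to 0.00758. They were not used in a test.

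Here, outlier spots were dropped, spots of a probe averaged, log2 taken and each array's 75th percentile subtracted. Well above background means that this flag was set for 0.5 or more of a probe's spots, and 32364 probes were tested. The median SD of repeated spots was 0.056 to 0.085 log2, and 0 spots were saturated. RefSeq symbols of GRCm38.p6 named 27235 of 55681 probes. A fold against a value not above background uses the dimmest signal above it on that array.

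Trends were tested with limma 3.58.1 (R 4.3.3) by moderated F of natural splines with 3 degrees of freedom (coronal, sagittal) or 2 (horizontal), with Benjamini-Hochberg adjustment over all probes tested and a threshold of 0.05. The scripts were tested on simulated data. Ligand minus receptor p-values were adjusted over 12 tests and are from a test in which only large values of F count. Alternatives were array-median scaling, quantile normalization, normexp with an offset of 50, no filter, another curve, the slide, other probes, and each fraction left out. Named genes were the 5, the pathway genes past a threshold or not above background, and the 3 symbols most like each. Members, lists and tests were chosen with earlier results of these data known. Some listed or similar genes are not reported here and were left out of list counts, list means and the ranking of similar transcripts.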

Additional observations from a re-analysis of the deposited data

Results flagged for a closer look

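Among the 5 genes in the horizontal and sagittal series (10 sets of levels, of which chance alone would mark about 0.5), 1 level stood apart. Bdnf in sagittal fraction 1 was at -0.74, and its gap to the next lowest fraction made up 0.538 of the whole range of the series, above Dixon's 95% limit for a set of this size. The array of that fraction was the dimmest of the 28, with a 75th percentile of 135. The fraction of the other side, number 10, had the highest Bdnf level of the series, 0.90. With array-median scaling the highest Bdnf level was in fraction 3. Other genes and lists were also lowest in fraction 1, among them Ngfr (-2.81) and Ntrk3 (1.72). The oligodendrocyte list was at -2.99 there around its mean. Ntrk2 was highest there (5.05), but in fraction 7 with array-median scaling or quantile normalization. With array-median scaling Ntrk3 was lowest in fraction 9, and with normexp Ngfr was lowest in fraction 2. The cause of the low Bdnf level in fraction 1 was not tested.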

How the results depend on the processing

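The coronal trend of Ntf3 and the coronal differences of Ntf3 with Ntrk3 and Ngfr passed whichever fraction was left out and under every other scaling, background correction and curve run. Taking the slide into account changed more. With the slide as a term, 241 probes and 0 of the 5 genes passed in the coronal series and 2520 probes in the sagittal one. In the fractions of 1 slide, 4164 probes passed in the coronal and 0 in the sagittal series (0 of the 5 genes there, with 2821 probes at an unadjusted p under 0.05 in limma). There the ligand and receptor differences, a setting chosen after seeing the data, had adjusted p-values of 0.364 (Bdnf and Ntrk2, coronal), 0.0524 (Ntf3 and Ntrk3, coronal; Ntf3 and Ngfr, coronal; Bdnf and Ngfr, sagittal) and 0.364 (Ntf3 and Ngfr, sagittal). With the slide as a random block, the comparison of the 3 series called 11 probes. Scaling by the array median called 10292 probes and 1 of the 5 genes in the coronal series, 19347 probes in the horizontal and 337 in the sagittal series, 1120 probes and 1 gene between mirror pairs, and 1355 probes between series, and it turned the r of Bdnf and Ntrk2 to 0.81 (horizontal), 0.44 (sagittal) and 0.18 (all 28 fractions). Quantile normalization called 2627 probes and 2 of the 5 genes in the sagittal series and 6 probes between mirror pairs. Normexp called 9066 probes in the horizontal series, 14295 and 3 of the 5 genes in the sagittal series and 238 between series, with adjusted p-values of 0.143 (Bdnf and Ngfr, sagittal) and 0.247 (Ntf3 and Ngfr, sagittal). Without the filter, 17330 probes passed in the coronal series, 19184 and 2 of the 5 genes in the sagittal series and 167 between series. A straight line called 1 probe and 0 of the 5 genes in the horizontal series and gave 0.271 for Ntf3 and Ngfr there. The next probe of the receptor gave 0.05 (coronal) and 0.363 (horizontal) for Bdnf and Ntrk2, and 3 of 12 differences then passed, as the adjustment over the 12 tests moved with them. The cause of these changes was not tested otherwise.

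Leaving out each fraction in turn gave 7938 to 11145 probes and 1 to 2 of the 5 genes in the coronal series, 0 to 5754 probes and 0 to 3 genes in the horizontal series, and 0 to 15244 probes and 0 to 3 genes in the sagittal series. The differences ranged, in the horizontal series, over 0.0361 to 0.139 (Bdnf and Ntrk2), 0.0286 to 0.15 (Bdnf and Ngfr), 0.0286 to 0.4 (Ntf3 and Ntrk3) and 0.0286 to 0.153 (Ntf3 and Ngfr), and in the sagittal series over 0.0201 to 0.0692 (Bdnf and Ngfr) and 0.0333 to 0.0779 (Ntf3 and Ngfr). Fraction numbers mark different places in the 3 planes and pair no samples. With the fraction number as a replicate block, 619 probes differed between the series, and 0 of the 5 genes did. Of 280 recomputed counts and tests of differences, 190 stayed alike, which for a count means within 1.5 times the value reported and for a test the same direction and side of the threshold. Of the other 90, 51 counts moved further, 37 tests no longer passed and 2 newly did. Of 339 values of single genes or correlations, 285 stayed alike (a correlation within its jackknife standard error over fractions), 32 no longer passed, 11 newly did, 8 correlations moved and 3 turned sign with an r of at least 0.1 in size on both sides; turns of an r nearer 0 are not among the 3. Signal limits Ntf3 in coronal fraction 12, and 1 array per position limits all else.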
